A study of Mus musculus with 2 samples.

Results

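The genes described here are 10 members of the bone morphogenetic protein (BMP) pathway, of 19321 genes with a named probe on the arrays. They were taken by symbol in the platform's probe annotation: the inhibitor of DNA binding genes Id1, Id2, Id3 and Id4, the Smad genes Smad6, Smad7 and Smad9, and the antagonists Fst, Grem1 and Bambi. Each member had 1 probe, and each probe 1 spot per array. The tissue was the gastrocnemius, a calf muscle, of female mice aged 10 weeks. The control mouse was labelled Wild type:R26-DTA and its littermate Pdgfra-CreER:R26-DTA, here called depleted. Both carried the R26-DTA allele, a diphtheria toxin A gene at Rosa26 that is silent until Cre acts on it, and both were given tamoxifen on 5 consecutive days from 9 weeks of age. Muscles were frozen 2 days after the last dose. CreER follows the Pdgfra promoter, so toxin is made in any cell with that promoter active, of which the mesenchymal progenitors of the muscle interstitium are the labelled target. The control had no CreER, so the presence of CreER and the loss of cells cannot be told apart. With 1 array per group there are no replicates, no error between animals and no test, and every difference below may be one between 2 animals. In whole muscle, fewer cells of a type and less RNA per cell cannot be told apart.

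BMPs are secreted ligands that bind paired type I and type II receptor kinases, which phosphorylate Smad1, Smad5 and Smad9. These join Smad4 and enter the nucleus, where the Id genes are among the most direct targets. Smad6 and Smad7 are induced by the same signal and block it at the receptor, which makes them both readouts and brakes of the pathway. In adult muscle, BMP signalling is known to support fibre mass, and mesenchymal progenitors are a source of ligands of this family, Gdf10 (BMP3B) among them. The study asked which genes differ in muscle depleted of these progenitors, and the members show the state of the BMP branch as transcript levels alone.

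The upstream sequences of Id2, Id3 and Smad6 are shown because, of the members with an entry in the RefSeq promoter table (build GRCm38.p6), these had spots well above the background limit on both arrays. Of the 10 members, 6 were matched in it. Each sequence is the 250 bases before the transcript start, 5′ to 3′ on the gene's strand, with capitals at GGCGCC, the GC-rich element that BMP-activated Smads are known to bind.

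Id2 (chr12:25096093-25096342, minus strand): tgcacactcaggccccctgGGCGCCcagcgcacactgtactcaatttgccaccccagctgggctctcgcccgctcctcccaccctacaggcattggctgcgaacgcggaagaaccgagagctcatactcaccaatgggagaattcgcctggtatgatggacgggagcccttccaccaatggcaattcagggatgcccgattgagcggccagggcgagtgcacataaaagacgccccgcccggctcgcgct

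Id3 (chr4:136143572-136143821, plus strand): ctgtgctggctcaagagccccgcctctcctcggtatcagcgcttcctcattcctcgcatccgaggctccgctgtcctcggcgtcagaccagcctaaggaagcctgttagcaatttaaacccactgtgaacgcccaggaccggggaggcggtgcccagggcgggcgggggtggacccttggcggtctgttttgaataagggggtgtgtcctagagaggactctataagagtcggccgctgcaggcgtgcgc

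Smad6 (chr9:64022060-64022309, minus strand): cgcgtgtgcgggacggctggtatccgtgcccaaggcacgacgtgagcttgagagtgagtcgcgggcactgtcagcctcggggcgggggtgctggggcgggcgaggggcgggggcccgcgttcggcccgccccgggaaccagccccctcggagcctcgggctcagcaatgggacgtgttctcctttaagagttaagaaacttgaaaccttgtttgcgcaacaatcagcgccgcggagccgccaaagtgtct

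Id2 held 1 GGCGCC, beginning 231 bases before the start, and Id3 and Smad6 held none in this window. Among the other 3 members with a sequence, Grem1, Id4 and Smad9 held 1 each, at 78, 148 and 51 bases. The motif reads the same on both strands, and it occurred in 9.59% of all 32851 windows of this length. The windows of these members were rich in G and C: the share was 62.8% for Id2 and Id3, 66.8% for Smad6, 72.0% for Grem1, 73.2% for Smad9 and 75.6% for Id4, against a median of 52.4% over all windows. The longer composite element, GGCGCC followed after 5 bases by GTCT, was searched on both strands. It contains the first motif, occurred in 0.07% of all windows and was in 0 of the 6. A match is a description of letters only, and the best known BMP element of this family, that of Id1, lies outside such a window.

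The spots of the depleted array were brighter in general, which sets how the values must be read. An intensity here is the median pixel of a spot in the Cy5 channel, with nothing subtracted. Over the 18498 genes compared, the median log2 ratio of uncorrected spots, depleted over control, was 0.14, and it was 0.40 in the brightest of 5 equal classes of intensity and 0.06 in the dimmest. After background correction and quantile normalization these medians lay between -0.01 and 0.00 in every class. Scaling to the array medians, an alternative, leaves much of this shift in place: it put the class medians at 0.26 in the brightest class, 0.15 in the second brightest and -0.06 in the second dimmest, so values under it are read relative to the class. A spot counted as above background where it exceeded the blank spots' mean by more than 2 SD, which put the limit at 37.4 for control and 38.5 for depleted muscle. All 9 myofibre genes were above background on both arrays. So were 17560 of the 19321 genes with a probe, so passing this limit does not check the tissue label. Pdgfra had spots of 250.9 and 161, or 1.91-fold lower after normalization. All 14 mesenchymal progenitor markers measured were lower after normalization, Dpp4 by only -0.02 in log2, and 13 were lower with scaling to the array medians. Their summed deposited values were 25038.5 (control) and 12201.9 (depleted), of which Gsn alone made up 12540.5 and 5485.4.

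None of the 10 members differed by 1.5-fold or more after normalization. Id1 and Smad6 were lower in depleted muscle, Id2 was higher, and the other 7 lay within 1.2-fold, Smad9 without a usable ratio. These thresholds say little of Smad9, in the dimmest intensity class, and of Id4 and Grem1, in the second dimmest. In both classes 0% of genes differed by 1.5-fold or more. At 1.2-fold the shares were 0% in the dimmest and 0.81% in the second dimmest. The count of 0 at 2-fold stands beside 0.919% of all genes compared (0.427% lower and 0.492% higher), and the count of 0 at 1.5-fold beside 3.49%. At 1.2-fold, 2 of 10 were lower, beside 7.45% of all genes, and 1 of 10 was higher, beside 7.85%. Those shares are held down by dim genes. In the brightest class, that of Id1, 43.1% of genes differed by 1.2-fold or more in either direction. In the second brightest, that of Smad6 and Id2, 24.4% did. Of the 9 members above background on both arrays 5 were lower and 4 higher, close to the background of 52.4% lower and 47.4% higher genes. The median log2 ratio of the 10 members was -0.02, and that of all genes 0.00. In the authors' deposited processed values, which carry no offset and so compress dim genes less, again 0 of 10 members reached 2-fold or 1.5-fold, where 5.26% and 17.7% of all genes did.

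**Figure D1:**
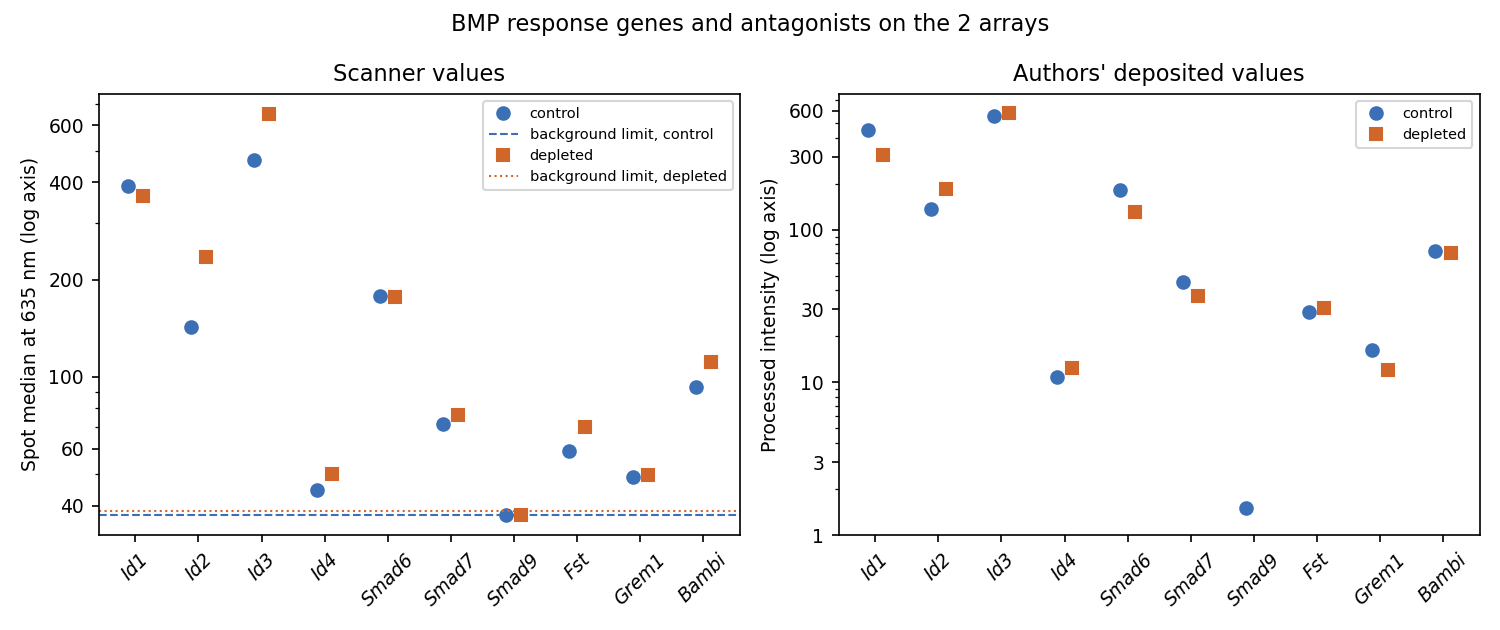
Intensity of the 10 members on the control (circles) and depleted (squares) array, as uncorrected spot medians with each array's background limit on the left and as the authors' processed values on the right, both on log axes with 1 spot per point. Id1, Id2, Id3 and Smad6 lie well above the limits, Smad9 sits at the limits, and only on the right, where arrays are scaled to each other, are Id1 and Smad6 clearly lower in depleted muscle.

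The Id proteins are helix-loop-helix proteins with no DNA-binding region. They pair with E proteins and keep these from partnering MyoD and its relatives, so a high Id level restrains differentiation. The members of this family did not share a direction in these arrays.

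Id1, the classic immediate target of BMP receptors in muscle precursors and endothelium, was at 389.9 for control and 363 for depleted muscle. The depleted spot was thus the dimmer one on an array where bright spots were mostly brighter. After normalization Id1 was 1.42-fold lower (log2 ratio -0.50), the largest difference among the members. Its deposited values were 450.1 (control) and 305.7 (depleted), or 1.47-fold lower. Of all genes compared 2.23% had a lower ratio than Id1, but in its own intensity class of 3700 genes, the brightest, 7.70% did, and 12.03% of that class differed by 1.5-fold or more. Scaling to the array medians put Id1 at -0.23, which is -0.49 relative to its class. Subtraction of the local background column gave 0.60, the opposite direction.

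Id2, which in muscle also responds to signals other than BMP, showed the opposite direction. Its spot was 143 in control and 235 in depleted muscle. After normalization it was 1.25-fold higher, with a log2 ratio of 0.32, and in deposited values it was 1.37-fold higher, from 135.8 to 185.5. In its class, the second brightest, 90.6% of genes had a lower ratio. Of the 10 alternative settings, 3 return the main value by construction for genes with 1 probe above background on both arrays (the mean of a gene's probes, no filter, and a filter asking for both arrays). Id2 was higher under the 7 that could differ, with log2 ratios from 0.33 to 0.53.

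Id3, the partner of Id1 in most BMP responses, had a spot of 468 in control and 652 in depleted muscle, in a class that was brighter on the depleted array by 0.40 in log2. Its normalized log2 ratio was 0.03. The deposited values, 549.9 and 577.0, were 1.05-fold apart. Its local background column read 140 (control) and 523 (depleted), and with that column subtracted its ratio was -1.30. On the depleted array the column equalled 80.3% of the spot.

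Id4, mostly known from brain and mammary gland, was dim. Its spots of 44.8 and 50.3 exceeded the mean of the blanks by only 8.54 in control and 13.3 in depleted muscle. Its log2 ratio was 0.03, and 0.05 relative to its class with scaling to the array medians. Subtraction of the local background column gave -0.28, the opposite direction. Its deposited values were 10.9 and 12.5.

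**Figure D2:**
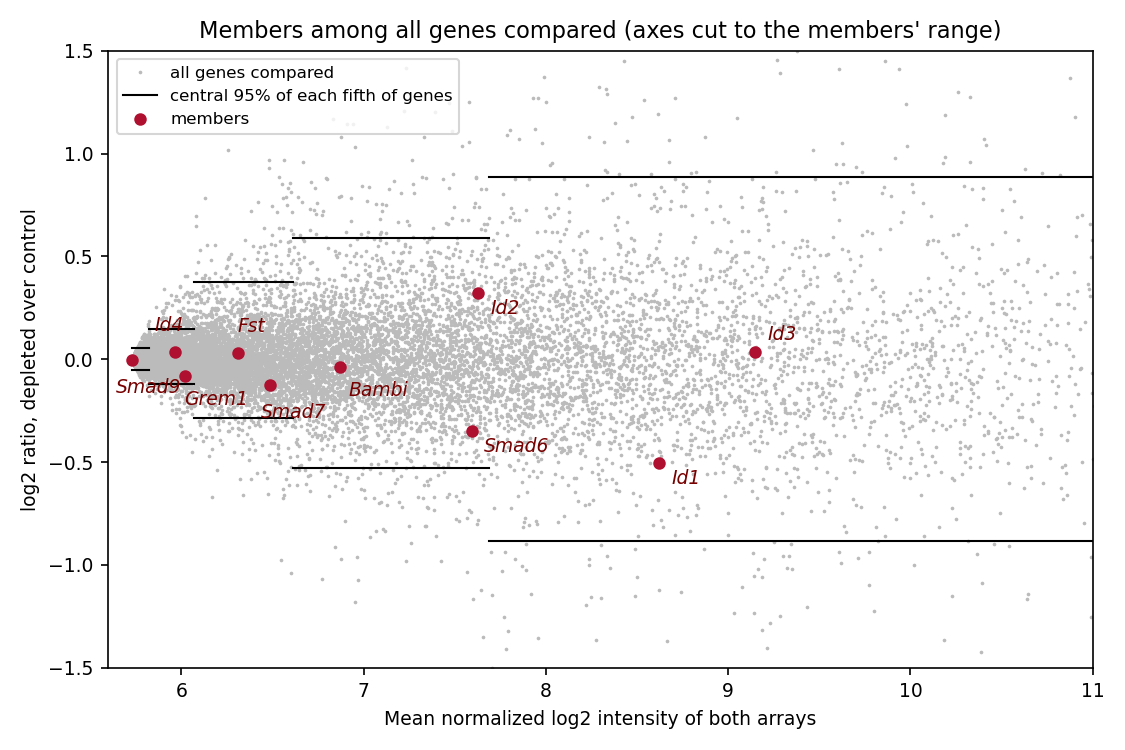
Log2 ratio of depleted over control against mean normalized log2 intensity for all genes compared (grey, 1 point per gene, axes limited to the range around the members), with the 10 members in red and black lines at the central 95% of each intensity class. All 10 members lie between those lines, and Id1 and Smad6 lie below 0 while Id2 lies above it.

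The inhibitory Smads Smad6 and Smad7 were both lower after normalization. Smad6, which preferentially blocks BMP receptors and is a BMP target itself, had nearly equal spots of 178 in control and 176 in depleted muscle, against a class median that was higher on the depleted array by 0.31 in log2. Normalization therefore put it 1.27-fold lower, at a log2 ratio of -0.35. The deposited values were 180.9 and 130.5, or 1.39-fold lower. In its class 6.68% of genes had a lower ratio. Smad6 was lower under the 7 alternatives that could differ, with log2 ratios from -0.48 to -0.15.

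Smad7, which inhibits both the TGF-beta and the BMP branch, was at 71.7 in control and 76.3 in depleted muscle. Its log2 ratio was -0.12, and its deposited values were 45.1 and 37, or 1.22-fold lower. It too was lower under these 7, from -0.29 to -0.05, and 14.6% of its class had a lower ratio.

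Smad9, a BMP-activated Smad whose transcript is itself raised by BMP, gave no usable ratio. Its spot was 37.45 in control, just over the limit of 37.42, and 37.40 in depleted muscle, under the limit of 38.52. No fold is given for spots this close to the limits. The authors' table lists it at 1.5 in control and leaves it empty in depleted muscle.

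The antagonists act at other points of the pathway. Fst encodes follistatin, a secreted protein that traps activins and myostatin and, with less affinity, BMPs. Grem1 encodes gremlin 1, a secreted trap for BMP2, BMP4 and BMP7 that mesenchymal cells of several tissues make. Bambi encodes a membrane receptor without a kinase that dampens the pathway and is itself induced by it.

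Fst was at 58.9 in control and 69.8 in depleted muscle, with a log2 ratio of 0.03 and deposited values of 28.8 and 30.9. It was higher under the same 7 alternatives, from 0.04 to 0.54. In the main setting its ratio of 0.03 lay well inside the spread of its class, whose central 95% ran from -0.29 to 0.38 in log2. In deposited values Fst was 1.07-fold higher. Grem1 was at 49.0 and 49.9, and its log2 ratio was -0.08. Its deposited values of 16.3 and 12.1 were 1.35-fold apart. Its spots exceeded the blanks by only 12.8 and 12.9, and the offset of 50 in the main setting shrinks the ratio of such dim spots. Grem1 was lower under the same 7 alternatives, from -0.43 to -0.08. Within its class 7.14% of genes had a lower ratio. Bambi was at 92.9 and 111, with a log2 ratio of -0.04 and deposited values of 72.1 and 69.8. Relative to its class it was at -0.05 with scaling to the array medians, and with the local background column subtracted its ratio was 0.33, the opposite direction.

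At 1.2-fold in the deposited values 5 of 10 members were lower (Id1, Smad6, Smad7, Grem1 and Smad9, the last against the lowest value of the table, 1.2) and Id2 was higher. The shares over all genes were 25.3% lower and 24.7% higher. Id1 and Smad6 are strongly expressed in endothelium as well as responding to BMP, so endothelial markers are given beside them: of 12 measured, all above background, 3 were lower and 9 higher, with a median log2 ratio of 0.06, and their summed deposited values were 2156.8 (control) and 2482.2 (depleted). With the local background column subtracted the endothelial median was -0.17, the opposite direction. The part of any cell type in the values of Id1 and Smad6 was not tested.

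**Figure D3:**
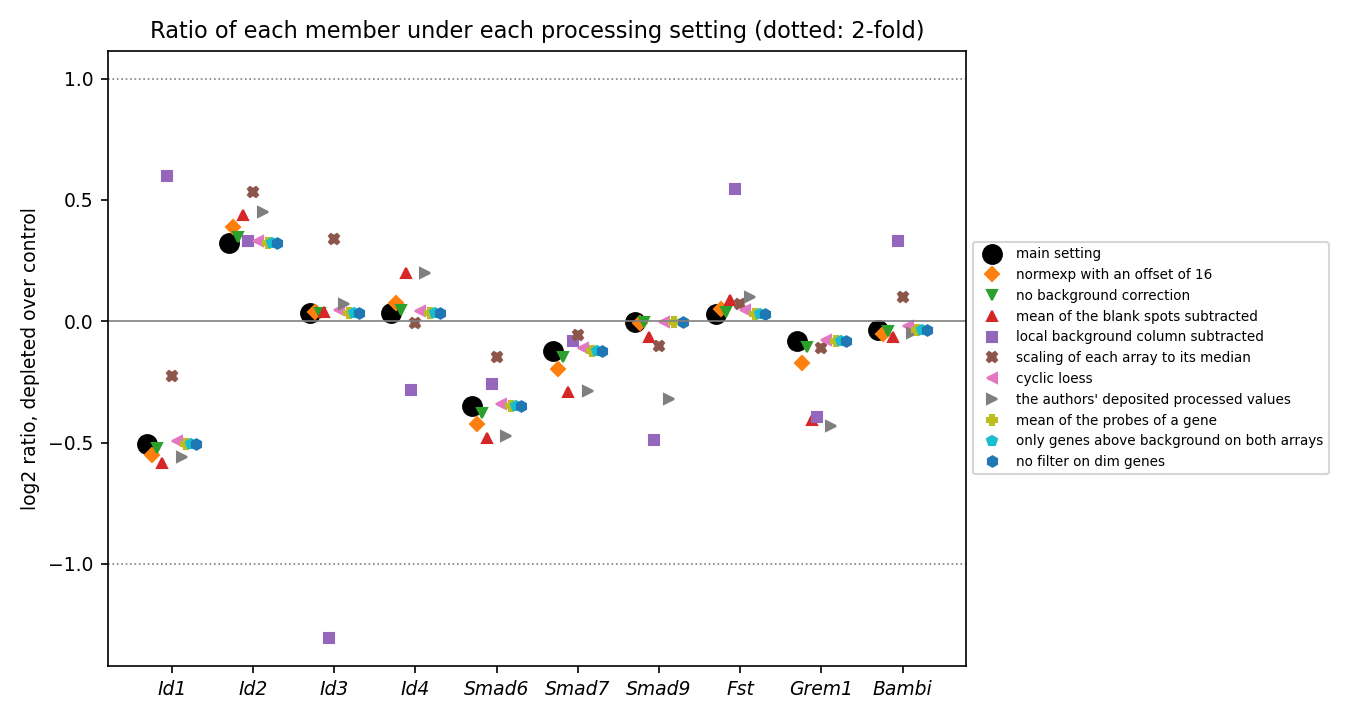
Log2 ratio of depleted over control for each member (horizontal axis) in the main setting (large black circles) and under the 10 alternatives, with dotted lines at 2-fold. Id2 and Fst stay above 0, and Smad6, Smad7 and Grem1 below 0, in all settings drawn. Of the alternatives 3 equal the main value by construction. Id1, Id3, Id4 and Bambi change sign with the local background column subtracted. Id4 (-0.005) and Bambi (0.10) also change sign with scaling to the array medians.

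The rest of the pathway was read from lists around the members. Beside each count of lower or higher genes in the main setting stands the share over all genes above background on both arrays. That share was 52.4% lower and 47.4% higher. Single genes shifted widely once the local background was subtracted (Tob1 to -4.92, Hjv to 0.15, Myf6 to 2.60), so deposited values stand beside the leading ratios. Of 14 BMP ligand genes, 12 were above background on both arrays, and Bmp8b and Gdf5 on neither. In that list 9 were lower and 3 higher, with a median of -0.04. Gdf10, the ligand tied to mesenchymal progenitors, had the largest difference, with spots of 78.6 and 51.4 and a log2 ratio of -0.66. Its deposited values were 53.9 and 13.5, a log2 ratio of -2.00, and with the local background column subtracted the ratio was -2.59. It was the only ligand past 1.5-fold in the main setting, where 1.52% of all genes were lower. In deposited values 3 ligands were lower by 1.5-fold or more. These were Gdf10, Bmp7 (5.7 and 2.8) and Gdf2 (4.8 and 3.0), the last 2 near the blanks. At that threshold 17.7% of all genes differed in deposited values, in either direction. The same share stands beside every such count below. In the main setting Bmp6 was at -0.20, Bmp5 at -0.11 and Bmp7 at -0.07. Bmp4, a strong activator of Id1, had deposited values of 113.9 and 117.6 and a ratio of 0.02. With scaling to the array medians, 7 of the 12 were lower relative to their classes, with Bmp6 at -0.24.

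Receptors and coreceptors had a median of -0.08, with 8 of 11 lower and 0 past 1.5-fold. Hjv, or hemojuvelin, the BMP coreceptor of muscle and liver, had deposited values of 1252.9 (control) and 851.7 (depleted) and a log2 ratio of -0.57. Rgma, of the same coreceptor family, was at -0.31 and the type I receptor Bmpr1a at -0.17. Acvr2b, the type II receptor shared by activins, myostatin and BMPs, was at 0.23, while its dimmer probe gave 0.02. The type I receptor Acvrl1 and its coreceptor Eng, both endothelial, were at -0.12 and -0.08.

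The signal-transducing Smads did not share a direction. Smad4, the common partner, was at 0.28 (deposited values 396.4 and 504.2), and Smad2 of the TGF-beta branch at 0.27, although the dimmer Smad2 probe gave 0.00. Smad3, the other TGF-beta Smad, was at -0.24, and its deposited values were 17.8 and 6.3, both near the blanks. The BMP Smads Smad1 and Smad5 were at 0.00 and -0.11. In deposited values Smad3 was the only gene of these Smads past 1.5-fold. Of 8 ligases and corepressors 7 were lower, and 7 relative to their classes with scaling to the array medians. In the main setting 1 of them was lower by 1.5-fold or more (Tob1), and in deposited values 2 were (Tob1 and Skil). Tob1, an antiproliferative protein known to restrain BMP Smads in bone, was 1.68-fold lower, with deposited values of 1976.7 and 1166.6. Ski was at -0.23, Ppm1a at -0.23 and Pmepa1 at -0.18.

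Among 16 other extracellular antagonists and modulators 12 were lower, also relative to their classes with scaling to the array medians. In the main setting 0 passed 1.5-fold. In deposited values 3 were lower by that much, where 17.7% of all genes differed in either direction. These were Dand5, Bmper with a log2 ratio of -1.38, and Vwc2, which was near the blanks (5.1 and 3.0). The median was -0.06. Dand5 was at -0.57, and its deposited values were 102.7 and 51.4. The follistatin-like Fstl1, a mesenchymal product, was at -0.48 (594.4 and 419.5), Bmper at -0.39 (35.9 and 13.8) and Chrd, or chordin, at -0.19. Noggin, encoded by Nog, had deposited values of 28.9 and 23.0 and a ratio of -0.10.

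Of 6 other BMP-responsive genes 5 were lower, with a median of -0.05 (-0.27 in deposited values) and 0 past 1.5-fold. Hey1, a target of both Notch and BMP, was at -0.28, Msx1 at -0.13 and Dlx5 at -0.07 (0.02 at its dimmer probe). Tmem100, an endothelial target of ALK1, was at 0.27, with deposited values of 93.4 and 125.8. Atoh8 was at -0.02. TGF-beta-responsive genes were all lower, 6 of 6, with a median of -0.13, led by Ccn2 at -0.27, Pmepa1 at -0.18, Tgfbi at -0.15 and Skil at -0.12, and 0 passed 1.5-fold, or 1 (Skil) in deposited values. All 6 were also lower relative to their classes with scaling to the array medians. With the local background column subtracted their median was -0.04. Ccn2, Tgfbi and Ltbp2 stayed lower there, while Pmepa1, Skil and Tgfb1i1 were higher. Pmepa1 and Skil also stand in the list of ligases and corepressors, so these 2 lists are not separate.

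On the activin and myostatin side, which follistatin holds in check, 6 of 10 genes were higher, with a median of 0.05. In the main setting 0 passed 1.5-fold. In deposited values 1 was lower by that much (Inha, 25.3 and 16.6) and 1 higher (Inhbb, 6.3 and 11.1, near the blanks). Mstn, which encodes myostatin, had deposited values of 356.1 (control) and 427.2 (depleted) and a log2 ratio of 0.19. Acvr2b is given above. Inha was at -0.16 and Inhba at 0.11, and both were dim. Acvr2a, Acvr2b and Fstl3 of this list also stand in the receptor or antagonist list.

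The helix-loop-helix factors that Id proteins oppose were higher in 5 of 7 cases, with a median of 0.12 and 0 past 1.5-fold, or 1 (Myod1, lower) in deposited values. Myf6, the factor of mature fibres, was at 0.42 (deposited values 1302.3 and 1836.1), Myog at 0.20 and the E protein gene Tcf12 at 0.16. Myod1 was at -0.53, with deposited values of 139.7 and 80.5.

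Atrophy genes whose expression is known to be linked to BMP signalling had the largest differences near the pathway. Fbxo30, a ubiquitin ligase gene that BMP-Smad signalling represses in muscle, was 1.70-fold higher, with spots of 76.5 and 174 and deposited values of 51.3 and 128.5. Fbxo32 was 9.13-fold and Trim63 6.53-fold higher; both also answer to FoxO factors. These 3 were past 1.5-fold, where 1.96% of all genes were higher, and 2 of them past 2-fold. Hdac4 was at -0.28. Fbxo30 came to 0.11 once the local background was subtracted. These genes were put on the list with their values in these data known, so their direction is no independent evidence.

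**Figure D4:**
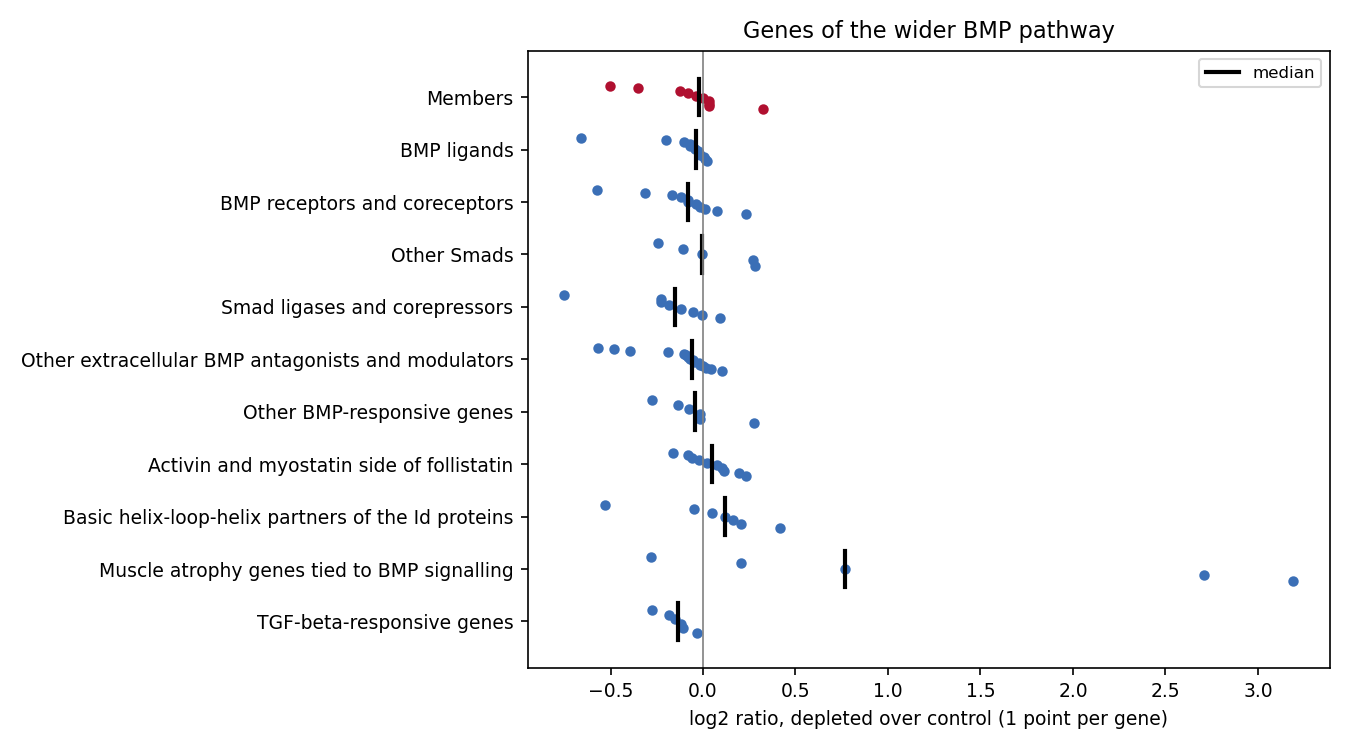
Log2 ratio of depleted over control for the members (red) and for each list of the wider pathway (blue), with 1 point per gene and a black bar at the median of each list. The members centre on 0 between -0.50 and 0.32, and only the 5 atrophy genes have a median far from 0, at 0.77.

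Markers of several other cell types differed between the 2 arrays too, and their part in the values of the BMP genes was not tested. All 9 macrophage markers measured were higher, with a median of 0.71, and their summed deposited values were 3246.3 (control) and 7081.8 (depleted); Lyz2 was at 1.22 and C1qc at 0.91. Tenocyte markers were lower in 6 of 8 cases, with Kera at -1.41 and Tnmd at -0.98, and summed to 2411.5 and 2155.5. All 5 erythroid markers measured were lower, summing to 31773.9 and 5724.4, with Hbb-bt at -3.30 and Hbb-bs at -2.47, globin probes that can share signal. Mural markers were higher in 6 of 9 cases (Tagln 0.68, Acta2 0.61), and muscle stem cell markers in 6 of 7 (Cdh15 0.58, Sdc4 0.44). Of 9 myofibre markers 7 were lower, with a median of -0.07, Pvalb at -1.25 and Myh1 at -0.43. In deposited values all 9 were lower, and they summed to 329864 (control) and 234663 (depleted). The deposited values multiply the control spots by 1.27 and the depleted spots by 0.939, and this fall includes that difference in factors. The same factors put the median log2 ratio of the brightest class at 0.01, where uncorrected spots had 0.40. The median of the 9 myofibre genes was -0.48 in deposited values. With scaling to the array medians all 9 were lower relative to their class. Adipocyte (Cidec -0.32, Adipoq 0.28), Schwann (Mbp 0.17, Sox10 -0.02) and lymphocyte (Cd2 0.29, Cd79a -0.11) lists had medians of 0.00. Of the cell type markers measured, only Lep was below background on an array. With the local background column subtracted, single markers shifted widely (Lyz2 to -7.55, Pvalb to 8.55). The medians there were 0.34 for macrophage, -0.77 for tenocyte, -3.62 for erythroid, 0.38 for mural and -0.15 for muscle stem cell markers. They were 0.00 for myofibre, 0.04 for adipocyte, -0.57 for Schwann and 0.13 for lymphocyte markers.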

How the data were processed

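Amino allyl RNA made from each muscle's RNA carried Cy5, per the labels' protocols. The scanner files hold linear spot intensities joined from 3 scan gains, per the file headers. The authors' deposited processed values are intensities too; set against the spots, each array is a straight line (factor 1.27 for control, 0.939 for depleted, minus about the blanks' mean), with a median of 25.0 on both. Scanner, software and genome build were not given in the sources used here.

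Spots were corrected with normexp (offset 50) of limma 3.58.1 in R 4.3.3, log2-transformed and quantile-normalized across 23473 probes. A gene was taken by its brightest probe, and 18498 genes, each above background on 1 array or both, entered the comparison; an array below background was set to its lowest value above it. Ratios are depleted over control. The steps were tested on simulated data in which only bright probes were changed, by 2-fold or more, over a constant local background. That test does not cover dim spots, differences as small as those of the members, or the real local background column. With 1 array per group no test was made; precision is limited by this number.

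Python 3.11.15, numpy 2.4.6, pandas 2.3.3 and matplotlib 3.10.9 were used. Of 23473 probes 20690 have 1 symbol, and matching 20556 to RefSeq (GRCm38.p6) by gene ID changed 0 symbols. The members and lists were chosen with earlier results of these data known. Besides the members and Pdgfra, genes were named by absolute log2 ratio where both arrays were above background. This gave up to 4 of each pathway list and up to 2 of each cell type list. In the mesenchymal list these were Lum (-1.84) and Col1a2 (-1.42), and in the endothelial list Cldn5 (0.83) and Pecam1 (0.40). Others were named after their values were seen, among them Acvrl1, Eng, Nog, Atoh8, Bmp4, Smad1, Dpp4, Gsn, Gdf2, Inhbb, Vwc2, Ltbp2 and Tgfb1i1. Levels of different genes were not ordered, since probes bind differently, and genes of like pattern were not sought, since 2 arrays give only a ratio. Protein sequences were not analysed here.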

Additional observations from a re-analysis of the deposited data

How the results depend on the processing

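No paired analysis was possible because there is 1 array per genotype. With no replicates, a value counted as moved where it shifted by more than the half-width of the central 68% of log2 ratios in the same intensity class, or over all genes for a list.

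Of 99 member values under alternatives 29 equal the main value by construction. Of the other 70, 53 shifted by less than this and 17 by more, mainly in dim genes and with the local background column subtracted. That column rises with the spot itself (Spearman 0.94 and 0.97 across the spots of each array). With it subtracted, 1 member was at least 2-fold lower (Id3), the members' median was -0.17, and list medians were 0.15 for receptors, -0.41 for other Smads, 0.10 for ligases and corepressors, -0.25 for other antagonists, 0.49 for other BMP-responsive genes, -0.20 for the activin side, -0.15 for helix-loop-helix factors and 0.36 for atrophy genes. In the authors' deposited processed values the members' median was -0.17, and the medians were -0.23 for other antagonists, -0.27 for other BMP-responsive genes, 0.27 for the activin side, 0.25 for helix-loop-helix factors, 1.32 for atrophy genes and -0.29 for TGF-beta-responsive genes. Subtraction of the blank spots gave -0.20 for ligands, -0.24 for other antagonists, -0.28 for other BMP-responsive genes, 0.25 for the activin side, 1.31 for atrophy genes and -0.31 for TGF-beta-responsive genes. Scaling to the array medians, which leaves the shift of bright spots in place, gave -0.019 for ligases and 0.92 for atrophy genes, and an offset of 16 gave 1.05 for the latter. A threshold of 1.2-fold counted 2 members lower and 1 higher, by construction. The cause of the other shifts was not tested. Signal over background limits Smad9, Id4, Grem1 and Fst most.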
